A study of Mus musculus with 7 samples.

Results

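Tnfaip3, which encodes the ubiquitin-editing enzyme A20, and 6 further regulators of NF-κB signalling (Tnip1, Tnfaip2, Ikbke, Tifa, Birc3 and Traf1) were followed through neutrophils of healthy and inflamed mice. These 7 genes were taken by name out of 28719 genes listed in the deposited counts, and they count as chosen by their levels in the inflamed conditions, since they were named with those levels known. Differences between the conditions are therefore given as a description, without a test, and the tests between healthy tissues are not independent of earlier results on these data. All neutrophils were sorted as Ly6G- and CD11b-positive cells from male C57BL/6J mice and sequenced as single cells in droplets, where each captured transcript carries a unique molecular identifier (UMI). Healthy bone marrow, peripheral blood and spleen gave 1 library each in each of 2 runs, from untreated mice of 6 weeks (run 1) and 8 weeks (run 2) by the study's methods, so that run and age cannot be told apart. A further library held 5 conditions marked with hashtag oligomers: blood of unstimulated mice, blood and joint lavage of mice given 150 µl of arthritogenic K/BxN serum on days 0 and 2 and sampled on day 7, and lung or peritoneal lavage 3 h after 25 ng of IL-1β into the airways or the peritoneum. By the study's methods, mice were 8 weeks old when given IL-1β or the first serum, so arthritic mice were older when sampled. For the unstimulated mice of this library the methods give no age. Each library or condition was 1 pool of 3 mice, so the conditions have no replicate.

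NF-κB is held in the cytoplasm by inhibitor proteins until receptors such as those for IL-1, TNF and bacterial products activate a chain of adaptors, ubiquitin ligases and kinases. Among the genes that NF-κB then switches on are several that act back on this chain, with A20 as the classical brake. Neutrophils meet such signals when they leave the blood for inflamed tissue, and loss of A20 in myeloid cells is known for causing inflammation.

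The 7 genes lie on 7 different chromosomes of the mouse genome (GRCm38, GENCODE M21): Tnfaip3 at chr10:19000910-19015657, Tnip1 at chr11:54910785-54962917, Tnfaip2 at chr12:111442469-111455018, Ikbke at chr1:131254343-131279606, Tifa at chr3:127789805-127832164, Birc3 at chr9:7848699-7873186 and Traf1 at chr2:34941750-34961772. The 250 bases before each RefSeq start (GRCm38.p6) were searched on both strands for the κB consensus, the decamer that NF-κB dimers bind. All 7 genes had such a window, and Tnfaip3 and Tifa had 2 for alternative starts. A match stood before Tnfaip3, Tnip1 and Tnfaip2, and the letters of the consensus were not found in the windows of Ikbke, Tifa, Birc3 and Traf1. Both Tnfaip3 matches lay in the same window, and the window of its other start held none. Of all 27025 genes with a window, 8.23% held a match. The matches are shown because the 7 genes stood highest together at the IL-1β sites, 5′ to 3′ on the strand of the gene, with matched bases in capitals.
Tnfaip3, 125 to 116 bases before the start (chr10:19015516-19015545, minus strand): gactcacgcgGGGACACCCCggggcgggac
Tnfaip3, 12 to 3 bases before the start (chr10:19015411-19015470, minus strand): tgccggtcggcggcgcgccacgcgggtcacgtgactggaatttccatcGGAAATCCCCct
Tnip1, 58 to 47 bases before the start (chr11:54962963-54963022, minus strand): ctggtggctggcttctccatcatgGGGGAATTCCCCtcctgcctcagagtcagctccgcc
Tnfaip2, 24 to 15 bases before the start (chr12:111442627-111442656, plus strand, partly within an exon of another annotated transcript): gactattttaGGAGGGCCCCtccagggtcg
The capitals before Tnip1 read the same on both strands and hold 4 overlapping matches. A match is a run of letters and does not show binding.

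Healthy neutrophils were the cells with at least 3% of UMIs from S100a8 and S100a9, which kept 12755 of 16907 cells and 1360064 to 9104133 UMIs per library. Per library, 5 to 92 cells lay just below this limit at 2% to 3%, and 0 to 93 just above it at 3% to 4%. In the inflammation library all cells of an ImmGen class beginning with GN were used (4852 of 4856), with 942688 to 10293966 UMIs per condition. All 11 neutrophil markers had UMIs in every library and condition. Median UMIs per cell were 775 to 2698.5 in healthy libraries and 2527 to 3681 in the conditions, and between 0 and 87 barcodes of a file also stood in another file. Spleen of run 1 stood apart from spleen of run 2, with 9.71% against 1.56% of UMIs from the granule genes Camp, Ngp, Ltf and Chil3, close to the 9.86% and 7.13% of bone marrow. Ikbke was not listed for blood of run 1 and Traf1 not for bone marrow of run 1, where only genes with a count are listed, and both were taken as 0. Levels are UMIs per 1000000 UMIs (CPM) with exact 95% Poisson intervals, which cover counting error only. A fall in the number of cells does not enter these levels, since they are summed within the cells kept. In CPM alone, less of all other RNA in a cell cannot be told apart from more of 1 transcript. Ratios between conditions were therefore also taken as UMIs per cell, as an alternative.

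In neutrophils drawn by IL-1β, all 7 regulators stood higher than in healthy blood, and 6 of them were highest in the peritoneum by more than their counting error. Tnfaip3, the A20 gene, had 24.9 CPM in healthy blood, 20.8 in arthritic blood, 77.1 in the arthritic joint, 385 in IL-1β lung and 1065 in IL-1β peritoneum. The bloods overlapped within their intervals, and the joint, the lung and the peritoneum each stood above the one before. Compared with healthy blood, Tnfaip3 was 15.5-fold higher in the lung (95% interval of the ratio 10.6 to 23.5) and 42.8-fold higher in the peritoneum (29.4 to 64.7). Tnip1 encodes ABIN-1, which binds A20 and ubiquitin chains. Tnip1 had 32.0 CPM in healthy blood, 31.2 in arthritic blood, 58.4 in the joint, 93.1 in the lung and 469 in the peritoneum. Its peritoneal level was 14.7-fold that of healthy blood (10.4 to 21.2) and 5.04-fold that of the lung (4.11 to 6.20).

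**Figure D1:**
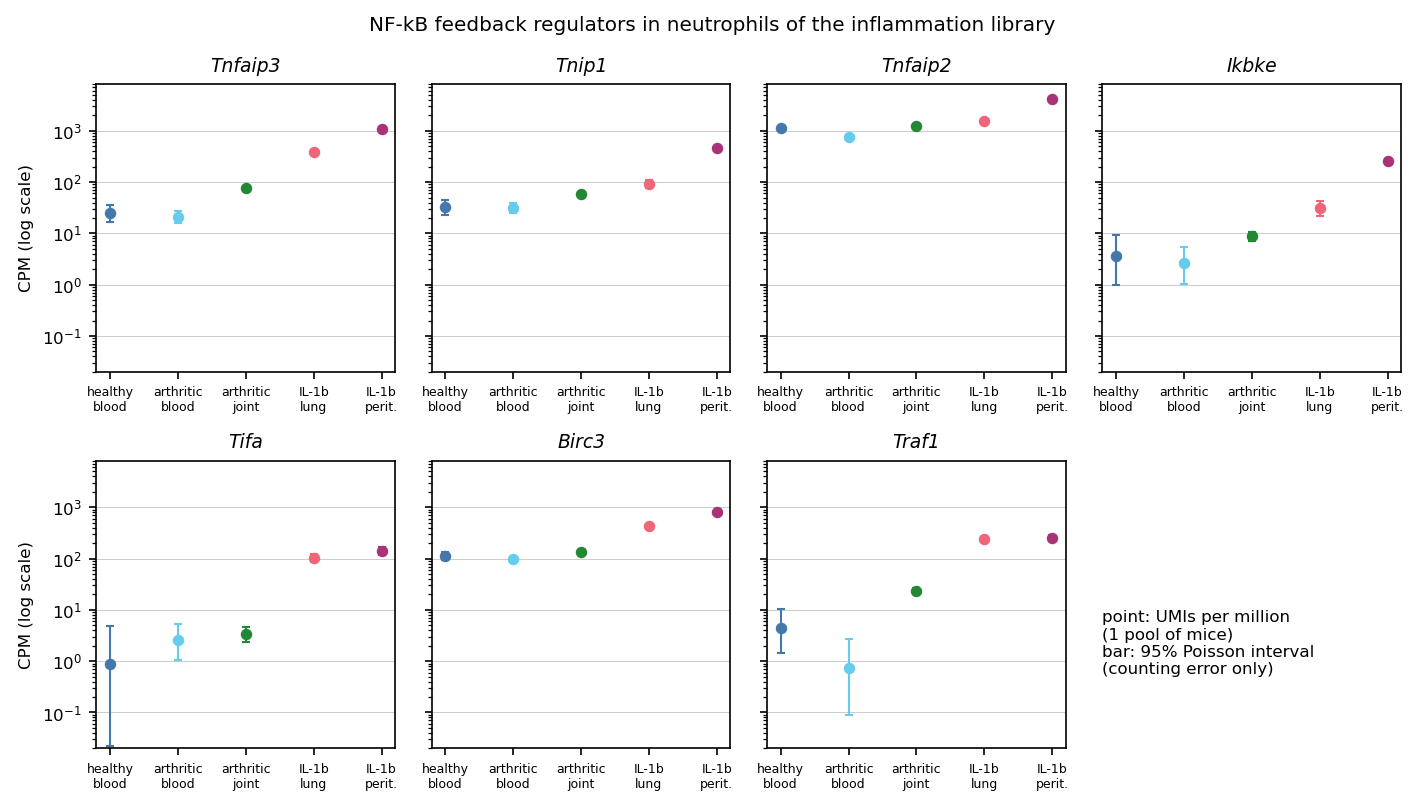
Level of each regulator (CPM, log scale) in the 5 conditions of the inflammation library. Each point is 1 pool of mice and each bar the 95% Poisson interval. Tnfaip3 climbs from 24.9 CPM in healthy blood to 1065 in IL-1β peritoneum, while Tifa stays at 0.889 to 3.40 outside the IL-1β sites.

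Ikbke encodes IKKε, a kinase related to the IκB kinases. Ikbke had 3.56 CPM in healthy blood and 2.60 in arthritic blood, from 4 and 7 UMIs, and 8.74 in the joint, 31.0 in the lung and 254 in the peritoneum. Of the 7 regulators, Ikbke differed the most between the IL-1β sites, at 8.17-fold higher in the peritoneum (5.85 to 11.7). Against healthy blood the peritoneum was 71.3-fold higher (27.5 to 264).

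Tifa and Traf1 encode adaptors, the first of which engages TRAF6 downstream of the kinase ALPK1 and the second of which joins TRAF2 and the cIAP ligases. Tifa had 0.889 CPM in healthy blood, from a single UMI, then 2.60 in arthritic blood, 3.40 in the joint, 104 in the lung and 139 in the peritoneum. The blood and joint intervals overlapped, and both IL-1β sites lay far above them. With 1 UMI in healthy blood, the ratio of the peritoneum to it was 156 with an interval of 27.6 to 6221, and that of the lung was 117 (20.6 to 4641). As a mean over cells these Tifa ratios were 39.5 and 30.9. With cells thinned to 1000 UMIs healthy blood had no Tifa UMI, and the ratios were at least 15.3 and 11.6 over a floor of 3 UMIs. Traf1 had 4.44 CPM in healthy blood, 0.743 in arthritic blood, 23.6 in the joint, 238 in the lung and 258 in the peritoneum. Between lung and peritoneum Traf1 differed by less than its counting error (ratio 1.08, 0.913 to 1.29), whereas Tifa was 1.34-fold higher in the peritoneum (1.05 to 1.72).

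Birc3 encodes the ubiquitin ligase cIAP2. Birc3 had 112 CPM in healthy blood, 96.2 in arthritic blood, 133 in the joint, 436 in the lung and 798 in the peritoneum. The 3 lowest values lay close together, with a joint-to-healthy blood ratio of 1.18 (0.986 to 1.43). Tnfaip2 encodes a TNF-induced protein involved in membrane protrusions. Tnfaip2 had 1116 CPM in healthy blood, 743 in arthritic blood, 1253 in the joint, 1546 in the lung and 4134 in the peritoneum. Tnfaip2 differed the least from healthy blood, by 1.39-fold in the lung (1.29 to 1.49) and 3.71-fold in the peritoneum (3.48 to 3.95).

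**Figure D2:**
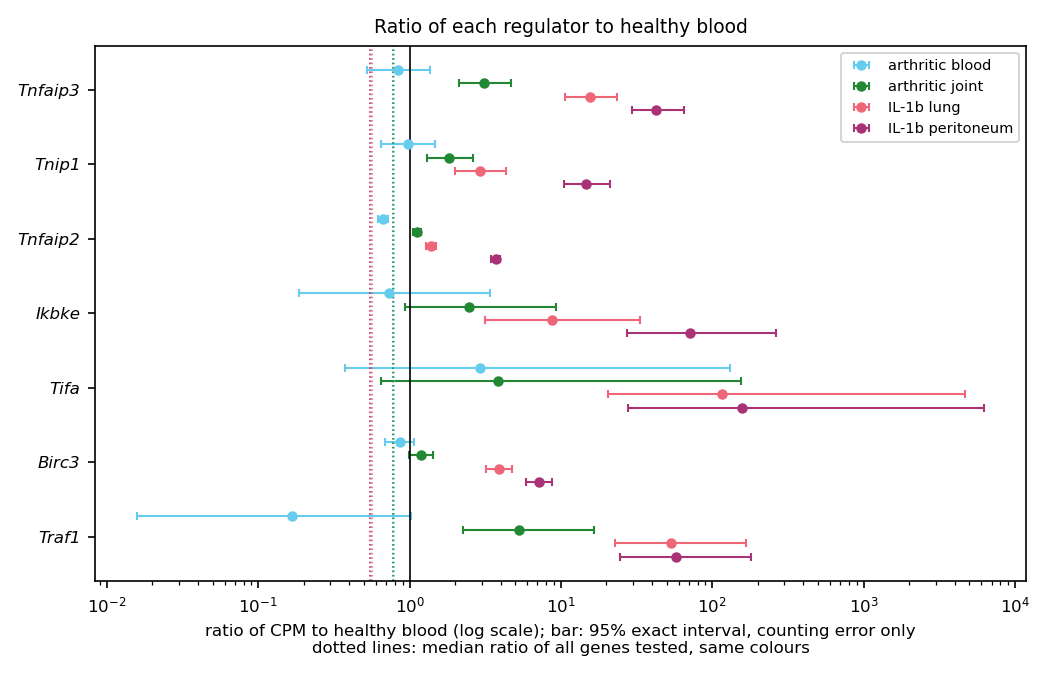
Ratio of each regulator to healthy blood (log scale) in the 4 other conditions, with exact 95% intervals that cover counting error only. Dotted lines mark the median ratio of all 3889 genes, which is 0.551 for the peritoneum, and all 7 peritoneal intervals lie right of 1.

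A ratio of 2 in either direction was taken as the size to count, over the 3889 genes with a mean of at least 20 CPM over the conditions. In the peritoneum 7 of 7 regulators were past 2-fold higher than in healthy blood, where 12.2% of all genes were. In the lung 6 of 7 were (all but Tnfaip2), beside 12.1% of all genes, and in the joint 4 of 7 (Tnfaip3, Ikbke, Tifa and Traf1), beside 10.6%. Ikbke, Tifa and Traf1 reached the mean of 20 CPM only through the IL-1β sites, so they had to differ. The intervals of Ikbke and Tifa in the joint included 1. With TMM factors or as UMIs per cell, 7 of 7 were past 2-fold in the lung and 5 of 7 in the joint, where Tnip1 joined them, and with cells thinned or held to the S100 limit 3 of 7 were in the joint. Against arthritic blood, 3 of 7 were past 2-fold higher in the joint (Tnfaip3 3.71, Ikbke 3.36 and Traf1 31.8, the last from 2 UMIs in arthritic blood and with an interval of 8.71 to 264), where 507 of 3889 genes were past 2-fold higher and 20.2% of all genes past 2-fold in either direction. The Traf1 ratio was 11.3 as a mean over cells and at least 5.75 in thinned cells, where arthritic blood had no Traf1 UMI and 3 UMIs were its floor. Over 7 alternatives the ratio of joint to arthritic blood ran from 1.73 to 3.66 for Ikbke. It ran from 1.75 to 2.04 for Tnip1 and from 0.930 to 2.96 for Tifa, so these 3 lay on both sides of 2-fold. Between the IL-1β sites 4 of 7 were past 2-fold higher in the peritoneum (Ikbke, Tnip1, Tnfaip3 at 2.76 and Tnfaip2 at 2.67), where 8.13% of genes were. These comparisons share healthy blood, arthritic blood or the lung as their reference. The median gene was lower than in healthy blood by 0.83 (lung), 0.86 (peritoneum), 0.36 (joint) and 0.33 (arthritic blood) on the log2 scale, so that relative to the median gene the peritoneal ratios were 77.7 for Tnfaip3 and 6.73 for Tnfaip2.

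Arthritic and healthy blood differed little. Only Tnfaip2 had an interval that excluded 1, at a ratio of 0.666 (0.620 to 0.715), and this ratio was 0.917 with TMM factors and 0.997 as UMIs per cell. Tnfaip3 had a ratio of 0.835 (0.522 to 1.37), Tnip1 0.975 (0.652 to 1.48) and Birc3 0.859 (0.691 to 1.07), and all 3 came to lie above 1 with either of these scalings. Tifa and Traf1 were past 2-fold in opposite directions, beside 5.43% of all genes past 2-fold in either direction, but rested on 7 against 1 UMI and 2 against 5 UMIs, with intervals of 0.376 to 132 and 0.0159 to 1.02.

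The share of cells with a UMI was higher at both IL-1β sites than in blood for all regulators but Tnfaip2, whose intervals in lung and healthy blood overlapped. Each cell was thinned to 1000 UMIs, which left out 155 of 509 cells of healthy blood and 61 of 292 of the peritoneum. Tnfaip3 then had a UMI in 2.26% of cells of healthy blood (exact 95% Clopper-Pearson interval 0.981 to 4.40), 2.37% of arthritic blood, 7.35% of the joint, 27.3% of the lung (22.2 to 32.8) and 55.8% of the peritoneum (49.2 to 62.4). Without thinning the peritoneal share was 71.6%. The share that free RNA gives in this library was not measured, since no other cell type was at hand in it. Birc3 had a UMI in 9.89% of thinned cells of healthy blood and 58.4% of the peritoneum, and Tnip1 in 2.26% and 34.6%. Tnfaip2 had a UMI in 61.3% of thinned cells of healthy blood (56.0 to 66.4), 71.0% of the lung (65.3 to 76.2) and 93.5% of the peritoneum. Ikbke was seen in 0.565% of thinned cells of healthy blood, 4.20% of the lung and 19.0% of the peritoneum. Traf1 was seen in 16.8% of the lung and 18.6% of the peritoneum, against 0.282% of healthy blood. Tifa was seen in 9.09% of the lung and 10.8% of the peritoneum, against 0 of 354 thinned cells in healthy blood, which allows a share of up to 0.847% by 3 counts and 1.04% by the exact interval. Without thinning 1 of 509 cells of healthy blood held Tifa.

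**Figure D3:**
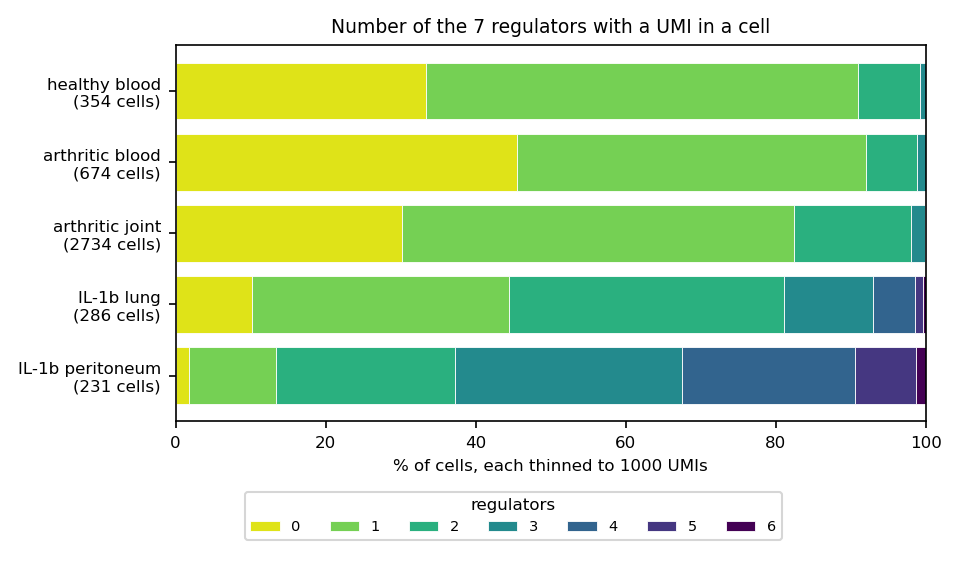
Share of cells (%, each thinned to 1000 UMIs) by the number of the 7 regulators with a UMI, for the 5 conditions. At least 2 regulators were seen in 9.04% of cells in healthy blood and in 86.6% in IL-1β peritoneum.

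At least 2 of the 7 regulators had a UMI in 9.04% of thinned cells of healthy blood, 8.01% of arthritic blood, 17.6% of the joint, 55.6% of the lung and 86.6% of the peritoneum. At least 4 were seen in 32.5% of peritoneal cells and 6.99% of lung cells, and in no cell of either blood. Within the peritoneum, Tnfaip3 had a UMI in 66.7% of cells with a Birc3 UMI (58.0 to 74.5) and in 40.6% of cells without one (30.7 to 51.1). Of 6 partner genes, Birc3 alone had separate intervals there. Tnip1, Ikbke, Tifa and Traf1 overlapped, with Tnfaip3 in 59.1% to 64.0% of cells with their UMI and 51.7% to 55.1% of those without, and for Tnfaip2 the share was 55.6% of cells with and lower, not higher, than that of the 15 cells without (32.3 to 83.7). For Birc3 they were 28.7% and 26.5% in the lung and 6.29% and 7.50% in the joint, with overlapping intervals. The 38 of 380 lung cells with most Tnfaip3 held 51.5% of its UMIs and 1 cell held 33 of the 509, whereas the 30 of 292 peritoneal cells with most held 38.7% and no cell more than 19 of the 1004. Tnfaip3 was spread less evenly over the lung cells in these counts, where lower counts also raise such a share.

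The authors had assigned each cell to the most similar ImmGen neutrophil population from all its genes, the regulators included. In the peritoneum the 163 cells likened to thioglycollate-elicited peritoneal neutrophils had 435 CPM of Ikbke (373 to 503), 1382 of Tnfaip3 (1270 to 1500) and 605 of Tnip1 (532 to 685). The 101 cells likened to synovial fluid neutrophils of arthritis had 140 CPM of Ikbke (106 to 182), 961 of Tnfaip3 (869 to 1062) and 450 of Tnip1 (387 to 520). The first class was higher for each of these 3 genes beyond counting error. In the joint, Traf1 had 26.6 CPM in the 2260 cells of the synovial fluid class (23.2 to 30.3) and no UMI in the 255 cells of the blood class, whose interval reaches 4.01 CPM. Tnfaip3 was 82.9 and 34.7 CPM in these classes of the joint. The class likened to peritoneal neutrophils in uric acid inflammation, 149 of the 509 cells of healthy blood, had a median of 590 UMIs and 61.0 CPM of Tnfaip3 (22.4 to 133), against 21.6 CPM (13.6 to 32.8) in the 353 cells of the blood class there.

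Markers of other cell types were present at the IL-1β sites at differing levels. Of 11 monocyte and macrophage markers, 7 had UMIs in the lung and 8 in the peritoneum, with summed levels of 296 and 389 CPM against 283 CPM in healthy blood, 336 in arthritic blood and 301 in the joint. Among the defining markers, Ccr2, C1qa and C1qc were at 0 at both sites. Of 8 B-cell markers, 5 had UMIs in the lung and 2 in the peritoneum, with sums of 23.5 and 28.6 CPM against 210 CPM in healthy blood, and Cd79a and Cd79b were at 0 in both. Of 8 epithelial and stromal markers, 3 had UMIs in the lung (Scgb1a1, Sftpc and Col1a1), in 5.53% of cells, with a sum of 69.6 CPM against 2.12 CPM in the peritoneum and 0 in healthy blood. Their part in the levels of the regulators was not tested.

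Other genes of the pathway lay on both sides of healthy blood. Of 55 further NF-κB pathway genes, 44 reached 20 CPM, and 20 of them were past 2-fold higher and 7 lower in the peritoneum than in healthy blood, with a median ratio of 1.62 beside 0.551 for all genes, of which 12.2% were past 2-fold higher and 44.9% lower. In the lung 16 were higher and 12 lower, with a median ratio of 1.17 beside 0.563 for all genes, of which 12.1% were past 2-fold higher and 43.8% lower. In the joint 7 were higher and 3 lower, with a median of 0.886 beside 0.779 for all genes, of which 10.6% were past 2-fold higher and 18.2% lower. In arthritic blood 2 were lower and none higher, where 5.43% of all genes were past 2-fold in either direction. By role, 9 of 17 feedback regulators and inhibitors were past 2-fold higher and 1 lower in the peritoneum, among them Nfkbia (15.4-fold, 13.7 to 17.3), the gene of the inhibitor IκBα, and Nfkbie (13.8-fold, 7.67 to 27.4). All 5 NF-κB subunit genes were, led by Nfkb2 (25.7-fold, 15.3 to 46.4). Of 14 adaptors and ligases 4 were higher and 4 lower, and of 8 kinases 2 and 2. Tnip3, a relative of Tnip1, had 98 UMIs (104 CPM) in the peritoneum and none in healthy blood, at least 31.1-fold higher by the exact 95% interval and 39.0-fold over a floor of 3 UMIs in healthy blood. Tnip3, Traf6 and Nfkbib were the 3 of these 44 genes that reached 20 CPM only through the IL-1β sites, so their counts above are no support.

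Over the 6 healthy libraries and 5 conditions, the genes whose log2 levels (CPM plus 10) were most like those of Tnfaip3 were Nfkbia (Pearson's r 0.992), Bcl2a1a (0.987), Relb (0.985), Ptpn2 (0.984) and Nfkb2 (0.984), out of 3803 genes. Traf1 ranked 29, Birc3 31, Tnip1 34, Ikbke 154, Tifa 196 and Tnfaip2 292. These values are across 11 points that share libraries and differ in chemistry and depth, and they rest on the 2 IL-1β sites as the highest points.

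In healthy mice, the regulators were compared between tissues with the run as a block (edgeR's quasi-likelihood test, Benjamini-Hochberg adjustment over 7667 genes, n = 2 pools per tissue). Tnfaip2 was the regulator that differed clearly, with higher levels in blood and spleen than in bone marrow. In runs 1 and 2, Tnfaip2 stood at 49.2 and 68.4 CPM in bone marrow, 344 and 431 CPM in blood, 138 and 408 CPM in spleen. Bone marrow did not overlap with blood or spleen, and spleen of run 1 lay well below spleen of run 2. The log2 difference from bone marrow was 2.45 ± 0.26 (SE, adjusted p = 0.0027) for blood and 1.89 ± 0.26 (adjusted p = 0.020) for spleen. Without blood of run 1 or run 2 the adjusted p for blood was 0.072 and 0.056, and that for spleen 0.095 and 0.11. Without the block of runs these values were 0.067 for blood and 0.36 for spleen. The log2 differences stayed at 2.25 to 2.74 for blood and 1.51 to 2.22 for spleen over all alternatives.

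**Figure D4:**
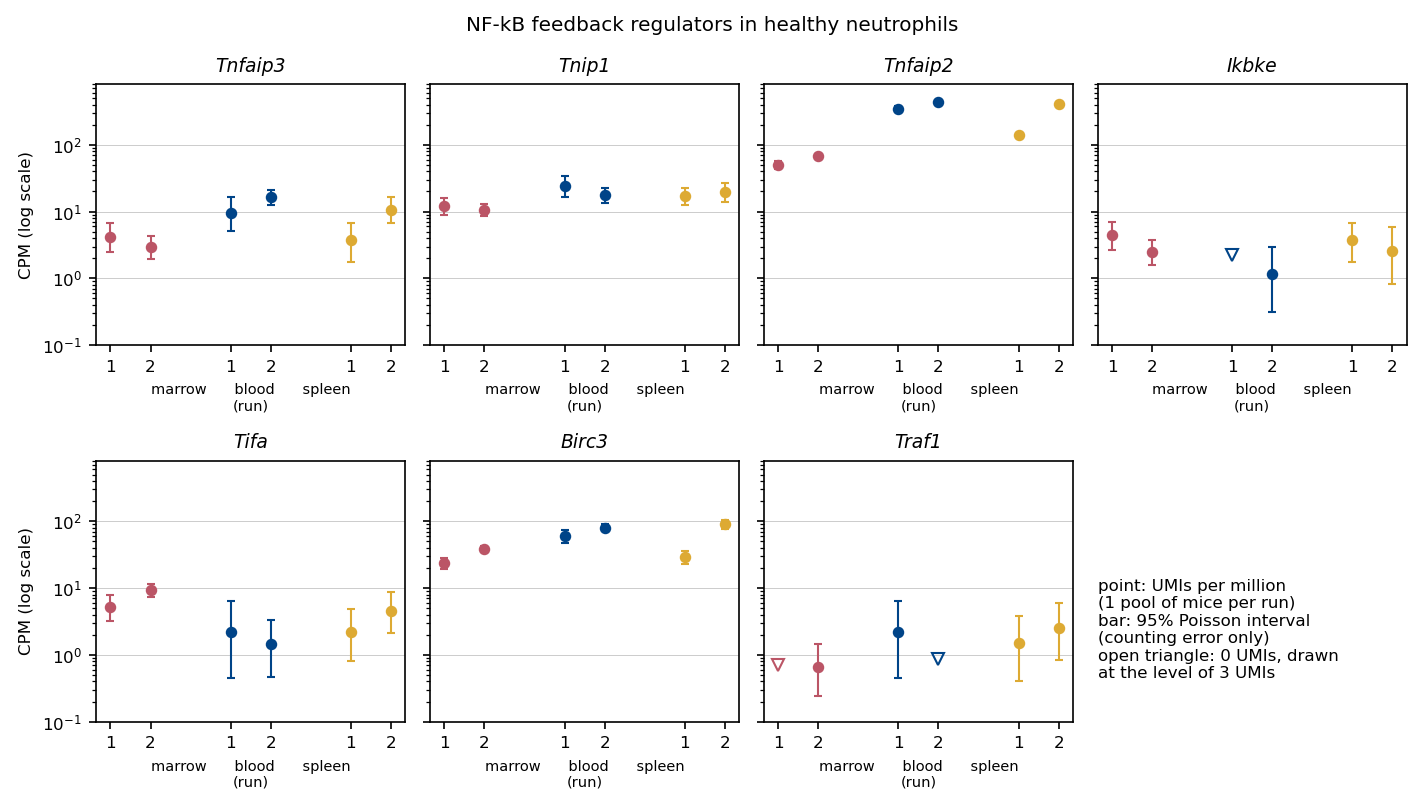
Level of each regulator (CPM, log scale) in healthy bone marrow, blood and spleen of runs 1 and 2, with 95% Poisson intervals. Tnfaip2 lies at 49.2 and 68.4 CPM in marrow and at 344 and 431 in blood, and open triangles mark libraries with 0 UMIs.

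Birc3 stood at 23.5 and 38.1 CPM in bone marrow, 59.6 and 80.4 CPM in blood, 29.0 and 90.5 CPM in spleen. Blood lay above marrow in both runs, by 0.92 ± 0.25 on the log2 scale (adjusted p = 0.041), and spleen also lay above marrow in both runs, by 0.64 ± 0.25, which did not pass (adjusted p = 0.26). This call was lost without either blood library (adjusted p = 0.32 and 0.14), without either marrow library (0.096 and 0.17) and with DESeq2 (0.15). It was also lost without the block (0.32) and with limits on mitochondrial UMIs and genes per cell (0.075). Without cells that held a lymphocyte marker or the red-cell gene Alas2 it was lost too (0.063). Haemoglobin genes were not used to leave cells out.

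The call count was 2 of the 6 regulators tested for blood against marrow, both higher, where 22.1% of all genes were called and 12.0% higher. For spleen against marrow it was 1 of 6, where 2.75% of genes were called and 2.23% higher, and for spleen against blood none, where 0.0522% were. No regulator had an unadjusted p under 0.05 by edgeR for spleen against blood, and 794 genes had one. Of the calls, 919 genes were higher and 774 lower in blood than in marrow (978 and 478 without TMM factors), and 171 higher and 40 lower in spleen than in marrow (130 and 12). Tnfaip3 stood at 4.24 and 2.97 CPM in marrow, 9.56 and 16.4 CPM in blood, 3.72 and 10.7 CPM in spleen. Blood lay above marrow in both runs, by 1.59 ± 0.49 on the log2 scale, with an adjusted p of 0.056 that did not pass. It passed without marrow of run 1 (0.0096), without spleen of run 1 (0.016) or run 2 (0.019), with at least 10% of UMIs from S100a8 and S100a9 (0.029) and without a filter on low counts (0.028), and reached 0.52 at most. The difference itself ran from 0.85 without marrow of run 2 to 2.19 without marrow of run 1. Tnip1 stood at 12.0 and 10.7 CPM in marrow, 24.3 and 17.5 CPM in blood, 17.1 and 19.4 CPM in spleen. Its difference between blood and marrow of 0.57 ± 0.24 did not pass (adjusted p = 0.14).

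Tifa went the other way in these pools, with 5.18 and 9.23 CPM in marrow, 2.21 and 1.44 CPM in blood, 2.23 and 4.60 CPM in spleen. The log2 difference of blood from marrow was -2.33 ± 0.79 (adjusted p = 0.075), which passed without spleen of run 1 (0.039) or run 2 (0.032) and reached 0.76 at most. In marrow of run 2, 58 of the 84 Tifa UMIs lay in the 929 cells that also held a lymphocyte marker or Alas2. These cells had 19.3 CPM against 4.26 CPM in the other 2497 cells. Sums of the 8 B-cell markers ran from 3.77 to 22.8 CPM in the 3 tissues of run 1, while in run 2 they were 170 CPM in marrow, 326 CPM in blood and 910 CPM in spleen. In cells without a lymphocyte marker or Alas2, Tifa had 4.19 and 4.26 CPM in marrow of runs 1 and 2. Blood had 1.67 and 0.786 CPM in such cells, from 2 UMIs each, and spleen 2.24 and 1.98 CPM. The part of other cells in the Tifa levels was not tested. Ikbke had at most 4.47 CPM and Traf1 at most 2.56 CPM in any healthy library. Ikbke differed by -2.40 ± 1.60 between blood and marrow (adjusted p = 0.32), from -7.15 without blood of run 2, which leaves the blood library with no Ikbke UMI, to -1.31 without blood of run 1. Traf1 had too few counts to be tested.

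In healthy libraries, cells were split at 2% of UMIs from Camp, Ngp, Ltf and Chil3, granule genes that neutrophils turn off as they mature. Tnfaip2 was higher in the granule-low cells of all 6 libraries. Its levels in granule-low and granule-high cells of marrow were 86.5 and 39.2 CPM in run 1, and 107 and 48.2 CPM in run 2. Blood held 435 and 78.1 CPM in run 1, and 442 and 117 CPM in run 2, and spleen 391 and 50.6 CPM, then 460 and 58.9 CPM. The classes did not overlap within any library, by 1.72 ± 0.21 on the log2 scale (adjusted p = 1.4e-05, edgeR over 5493 genes with the library as a block, n = 6 libraries). The 3 libraries of a run share their mice, so p-values over the 6 libraries are too small. Granule-low cells of blood and spleen lay above those of marrow, and spleen of run 1 stood with spleen of run 2 once split. Birc3 was higher by 0.50 ± 0.18 (adjusted p = 0.036) and Tnip1 by 0.36 ± 0.34 (adjusted p = 0.41). The Birc3 call was lost without any 1 library other than marrow of run 1 (adjusted p = 0.063 to 0.12) and with DESeq2 (0.065). Of 3 regulators with enough counts 2 were called, both higher, where 44.9% of all genes were called and 24.0% higher.

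**Figure D5:**
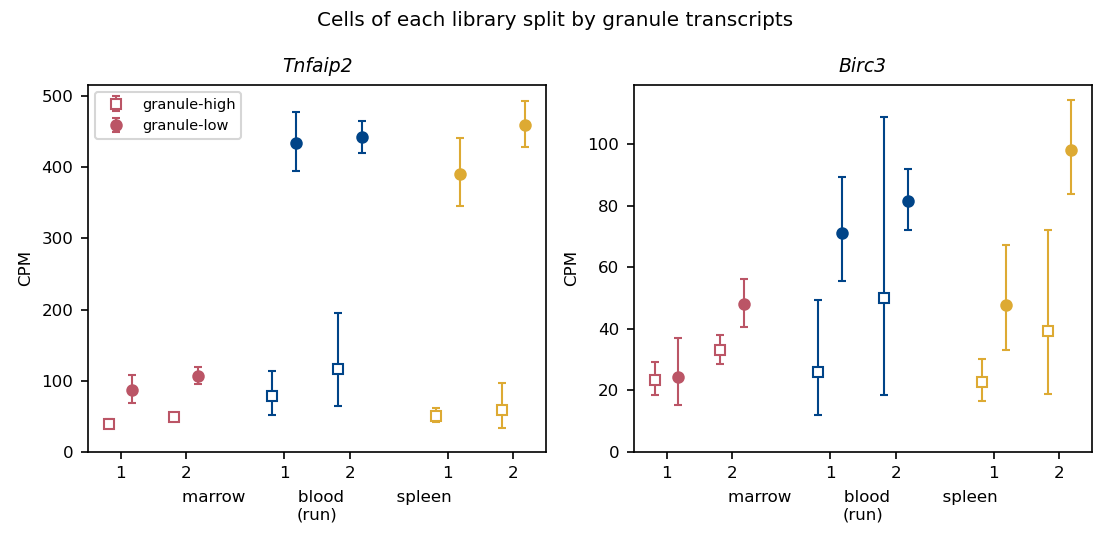
Levels of Tnfaip2 and Birc3 (CPM) in granule-high cells (open squares) and granule-low cells (filled circles) of each healthy library, with 95% Poisson intervals. Tnfaip2 reaches 391 to 460 CPM in granule-low cells of blood and spleen and 86.5 and 107 CPM in those of marrow.

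Of 50 other pathway genes tested, 15 were higher and 1 lower in blood than in marrow, where 22.1% of all genes were called and 12.0% higher. They were led by Trim30a (1.92 ± 0.24, adjusted p = 0.0041), Zc3h12a, which encodes the RNase Regnase-1 (1.78 ± 0.30, 0.0090), Tank, the only one lower (-1.67 ± 0.30, 0.011), and Myd88, the IL-1 receptor adaptor (1.56 ± 0.22, 0.0053). For spleen against marrow only Trim30a and Myd88 were called, both higher, where 2.75% of all genes were called and 2.23% higher. This count of 2 of 50 is close to that share, and without the block of runs no gene was called there. For spleen against blood none of the 50 was called, where 0.0522% of all genes were. In granule-low against granule-high cells 16 of 44 were higher and Tank was lower, where 44.9% of all genes were called and 24.0% higher. Barcodes with at least 50% haemoglobin UMIs were taken as red cells, to gauge free RNA. Whether their UMIs of the regulators came from free RNA or from doublets with neutrophils was not tested. They were not thinned, so their depth is unlike that of the neutrophils set beside them. Of 742 in blood of run 2 (median 2756.5 UMIs), 7.28% had a Tnfaip2 UMI, 1.08% a Birc3 UMI and at most 0.270% any other regulator. Neutrophils of this library, at a median of 826 UMIs and thinned to 500, had a Tnfaip2 UMI in 20.4% of cells, a Birc3 UMI in 4.06% and a Tnfaip3 UMI in 0.899%.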

How the data were processed

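The authors aligned reads to mm10 with Cell Ranger, in a version of its own per experiment, and deposited UMI counts by gene symbol for each barcode, ahead of their own cell filters, with a table of hashtag conditions and ImmGen classes for the inflammation library. Hashtag doublets had been removed by the authors, whereas doublets among healthy cells were not called here. Counts were not corrected for free RNA. The 7 genes and the pathway and marker lists were chosen with earlier results of these data known.

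Counts of the kept cells were summed per library or condition. Healthy tissues were compared with edgeR 4.0.16 (quasi-likelihood test, TMM factors, filterByExpr, run as block, FDR 0.05) in R 4.3.3. DESeq2 1.42.0 served as an alternative. Standard errors were the log2 difference divided by the square root of F. By the study's methods the 3 tissues within each run shared their mice, and their deviations from tissue means correlated at 0.465 to 0.570 over 7667 genes. Pools of different runs were separate experiments. With the run as a block, p-values between tissues rest on how far tissue differences varied between the 2 runs. That spread was estimated over all 3 tissues together. The granule classes were compared within 6 libraries, which come from the mice of 2 runs. Conditions had no test: ratios of CPM carry exact conditional binomial intervals. The fits were tested on simulated data. Tnfaip3, Ikbke, Tifa and Traf1 did not pass the filter on low counts in the granule comparison, nor did Traf1 in the tissue comparisons.

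All 7 genes were to be named. Of the 55 pathway genes, counts were given, and at most 4 were named per comparison by the largest change among those called or past 2-fold. The 5 genes most like Tnfaip3 by Pearson's r were named. Alternatives changed the scaling, the filters on genes and cells, the block, the granule limit, the weight and depth of cells, and left out each library. Work in Python used numpy and scipy.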

Additional observations from a re-analysis of the deposited data

Results flagged for a closer look

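Tnfaip2 was lower in arthritic than in healthy blood (ratio 0.666), while it was higher in the joint (1.12), in IL-1β lung (1.39) and in IL-1β peritoneum (3.71), each with an interval that excluded 1. The difference between these conditions was not tested, since each is 1 pool, and the ratio in arthritic blood was 0.997 as UMIs per cell.

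Cells left out for too little S100a8 and S100a9 held some regulators at a higher level than the neutrophils of the same library, in both runs and beyond counting error. Tifa had 178 and 478 CPM in the left-out cells of bone marrow (runs 1 and 2), from 65 and 397 cells, and 31.7 and 24.6 CPM in those of spleen. Traf1 had 111 and 41.2 CPM in left-out spleen cells and 32.9 and 4.07 CPM in left-out blood cells. Ikbke had 26.4 and 18.8 CPM in left-out spleen cells.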

How the results depend on the processing

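The cause of each change below was not tested. In the tested comparisons, 225 values of single regulators kept their direction and side of the threshold under an alternative, 20 lost a call, 7 gained one and 2 turned. The log2 difference of Ikbke between spleen and bone marrow, at -0.24, ran from -0.87 to 0.16 when 1 library was left out (turning without spleen of run 2), and that of Tnip1 between spleen and blood, at -0.04, from -0.15 to 0.0015 (turning without blood of run 1). Called genes between blood and bone marrow fell from 1693 to 1124 with DESeq2 and 201 with no block of runs, and ran from 0 (without blood of run 2, where 2023 genes had an unadjusted p under 0.05 by edgeR) to 2518 without 1 library. Between spleen and bone marrow the 211 called genes became 108 with limits on mitochondrial UMIs and genes per cell, 440 with no filter on low counts and 0 with no block (695 unadjusted), and 0 to 990 without 1 library, with 0 when either blood library was left out (1039 and 1020 unadjusted). Between spleen and blood the 4 called genes became 32 with DESeq2 (23 higher and 9 lower), 19 with at least 10% of UMIs from S100a8 and S100a9, 34 with no filter and 0 with no block (471 unadjusted), and 0 to 434 without 1 library, with 0 when either blood library was left out (298 and 681 unadjusted). Leaving out a library, a lone pool is assumed to vary like the other groups. Leaving out the block changed no call of a regulator other than those of Tnfaip2 and Birc3 between tissues.

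The regulators past 2-fold between arthritic and healthy blood went from 2 to 1 with at least 3% of UMIs from S100a8 and S100a9, to 0 with cells thinned to 1000 UMIs and to 1 as a mean over cells, where the Tifa ratio turned to 0.720. Over 7 alternatives the peritoneum-to-healthy blood ratio ran from 35.1 to 80.5 for Tnfaip3, 13.5 to 27.6 for Tnip1, 3.68 to 6.97 for Tnfaip2, 46.7 to 134 for Ikbke, 6.62 to 13.4 for Birc3, 38.3 to 109 for Traf1 and 15.3 (a bound) to 294 for Tifa. The share of peritoneal cells with a Tnfaip3 UMI was 55.8% thinned and 71.6% not thinned.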

Other observations

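Tnip3, a relative of Tnip1, had nearly all its UMIs in IL-1β peritoneum. The 98 UMIs there lay in 22 of 292 cells (7.53%), and the cell with most held 16 of them. The joint had 3 Tnip3 UMIs, the lung and arthritic blood 1 each, and healthy blood none, which with 3 UMIs as the floor allows up to 2.67 CPM.

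Of 44 pathway genes, 8 were past 2-fold higher and none lower in the peritoneum than in the lung. Of all genes 8.13% were past 2-fold higher, and 300 of 3889 lower. Tnip3 had the largest ratio but reached 20 CPM only through the IL-1β sites, so its count is no support. Beside Tnip3 the largest ratios were those of Tbkbp1 and Rbck1. Rbck1, which encodes the ligase subunit HOIL-1, had 40.0 CPM in healthy blood, 6.06 in the lung and 26.5 in the peritoneum, and Tbkbp1 45.3, 4.54 and 22.3 CPM. The peritoneum was 4.38-fold (1.91 to 11.2) and 4.90-fold (1.91 to 14.9) above the lung, from 8 and 6 UMIs there.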
